A study of Mus musculus with 6 samples.

Results

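The enzymes that break down amino acids were examined in RNA from glomeruli that had been isolated from mouse kidney, where they filter the blood. The set was a list of 40 genes named by symbol, all of which were found among the 54838 gene identifiers of the count tables. The genes were chosen by function with the fold changes between the groups of these data in view, Hpd having been seen among the largest falls. Differences between the groups are therefore descriptions of the 40 genes and lend no support to the choice of the list. Counts were high enough for a test in 37 of the 40 genes, and Tat, Agxt and Sds were not tested.

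The study set 3 mice with a bPIX -/- genotype, described as lacking bPIX in podocytes, against 3 wild type control mice, all 3 weeks of age. bPIX is the product of Arhgef7, an exchange factor for Rac1 and Cdc42, and podocytes are the epithelial cells that wrap the glomerular capillaries. The labels name neither the driver of the podocyte deletion nor the strain. Libraries are called by label and animal number, KO 146, 147 and 148 and CTRL 157, 162 and 163, with 40246366 to 51917945 gene counts in the libraries labelled KO and 39841396 to 46187515 in those labelled CTRL. For all 6 libraries the deposited count table bears the name of an animal of the opposite group. Groups follow the sample labels here, and every direction would turn round if the table names were the correct ones.

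The targeted gene did not settle this point. Arhgef7 stood at 133, 89.6 and 85.9 CPM (read counts divided by the scaled library size and multiplied by 1000000) in KO 146, 147 and 148, against 91.9, 94.1 and 88.4 CPM in CTRL 157, 162 and 163. The groups overlapped (log2 fold change 0.17, SE 0.17, edgeR Benjamini-Hochberg adjusted p = 0.544, 0.0951 to 0.733 over the alternatives), and a deletion in podocytes alone leaves the gene intact in all other cells of the sample. Transcripts of the proximal tubule outweighed those of podocytes in every library. The 27 proximal tubule markers summed to 14812 to 24131 CPM in the libraries labelled KO and 28172 to 30464 CPM in those labelled CTRL, against 3272 to 10900 and 1566 to 1831 CPM for 20 podocyte markers. None of these markers was at 0 in all libraries. KO 146 stood apart, with the lowest tubule and the highest podocyte sum. The Y-linked gene Ddx3y was at 58.5 to 71.1 CPM in the libraries labelled KO and 55.3 to 57.5 CPM in those labelled CTRL, and Xist was at most 0.0965 CPM in any library.

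Amino acids that are not used for protein lose their nitrogen and pass their carbon skeletons through chains of mitochondrial, peroxisomal and cytosolic enzymes into central metabolism. Liver carries most of these chains, and the proximal tubule, which reclaims filtered amino acids, carries many of them too. The kidney is known for making the creatine precursor guanidinoacetate, for oxidising proline and D-amino acids, and for taking up glycine and citrulline. In a bulk sample, fewer cells of a type and less RNA per cell cannot be told apart.

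Among the 40 genes, levels per kilobase of exon spanned more than 3 powers of 10. Gatm, which makes guanidinoacetate, was highest, at 424 CPM per kilobase in the libraries labelled KO and 532 in those labelled CTRL. Pcbd1 and Qdpr, which recycle the pterin cofactor of aromatic amino acid hydroxylases, followed at 320 and 224 CPM per kilobase in the libraries labelled KO and 370 and 269 in those labelled CTRL. Dao, the D-amino acid oxidase, stood at 128 and 177 CPM per kilobase, and Fah, the last enzyme of tyrosine breakdown, at 91.2 and 143, in the libraries labelled KO and CTRL. At the other end, Pycr1, which makes proline rather than degrading it, had 0.142 and 0.113 CPM per kilobase, and Bhmt, the betaine-homocysteine methyltransferase, had 0.121 and 0.275. The cytosolic tyrosine aminotransferase gene Tat had 0 counts in all 3 libraries labelled KO and 1 count in all 3 labelled CTRL together. Agxt, the peroxisomal alanine-glyoxylate aminotransferase, had 2, 2 and 3 counts in KO 146, 147 and 148 and 0, 0 and 2 in CTRL 157, 162 and 163. Sds, the serine dehydratase, had 18, 9 and 8 counts in the libraries labelled KO and 3, 3 and 6 in those labelled CTRL, with no overlap and no test. A count of 3, the limit that a count of 0 allows, corresponded to 0.0508 to 0.0724 CPM in the libraries labelled KO and 0.0678 to 0.0788 CPM in those labelled CTRL. Tat and Agxt had at most 3 counts in any library.

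**Figure D1:**
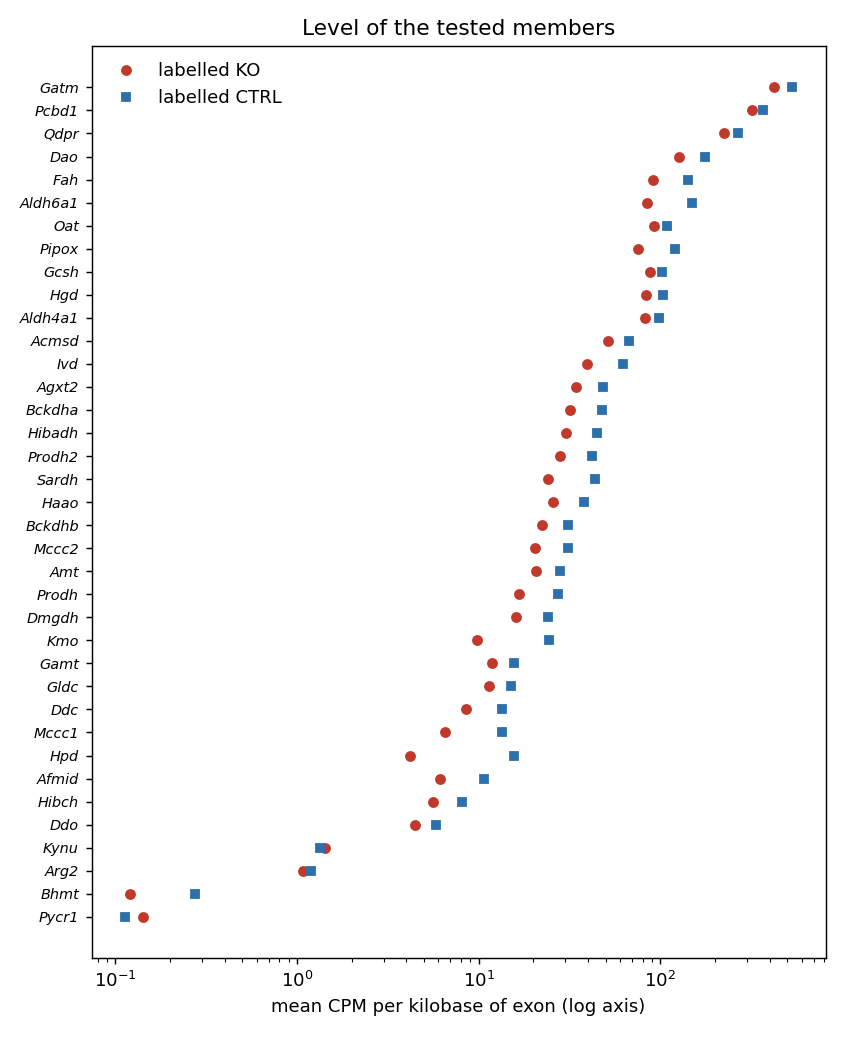
Mean level of the 37 tested genes in CPM per kilobase of exon, on a log axis, in the libraries labelled KO (red circles) and labelled CTRL (blue squares), ordered by the mean over all libraries. Gatm is highest, Pycr1 and Bhmt are lowest, and for 35 of the 37 genes the KO circle lies left of the CTRL square.

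Hpd, Kmo and Bhmt fell in the libraries labelled KO, and none of the 37 tested genes rose. By edgeR's quasi-likelihood test with Benjamini-Hochberg adjustment over all 17086 genes tested, 3 of the 37 were called lower and 0 higher, where 0.421% of all genes were called lower and 0.591% higher. Of the other 34, 20 had an unadjusted p below 0.05, all with lower values in the libraries labelled KO, so that the count at that level was 23 lower and 0 higher, against 11.8% and 17.5% of all genes. The log2 fold change (labelled KO over labelled CTRL) was below 0 in 35 of the 37, against 50.7% of all genes, and its median was -0.53, against -0.0062 over all genes tested. All 3 libraries labelled KO lay below all 3 labelled CTRL in 30 of the 37 genes, against 19.6% of all genes. In 0 of the 37 did they lie above all 3 labelled CTRL, against 21.9% of all genes, and 7 overlapped. DESeq2 called 21 members lower and 0 higher, against 5.89% and 12.1% of all genes it tested. The edgeR count was 20 without KO 146 (6.62% of all genes lower) and 23 without KO 148 (5.4%). It was 0 without KO 147 (0.00574% of all genes), CTRL 157 (0.00569%) or CTRL 162 (0.0057%), and 1, Hpd, without CTRL 163 (0.0284%). With no filter on low counts it was 17 of 40 (1.31% of all genes), and limma-voom called 2, Hpd and Kmo (0.328%). Of all gene counts, the 40 genes together held 0.527%, 0.660% and 0.6905% in KO 146, 147 and 148 and 0.842%, 0.790% and 0.782% in CTRL 157, 162 and 163.

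**Figure D2:**
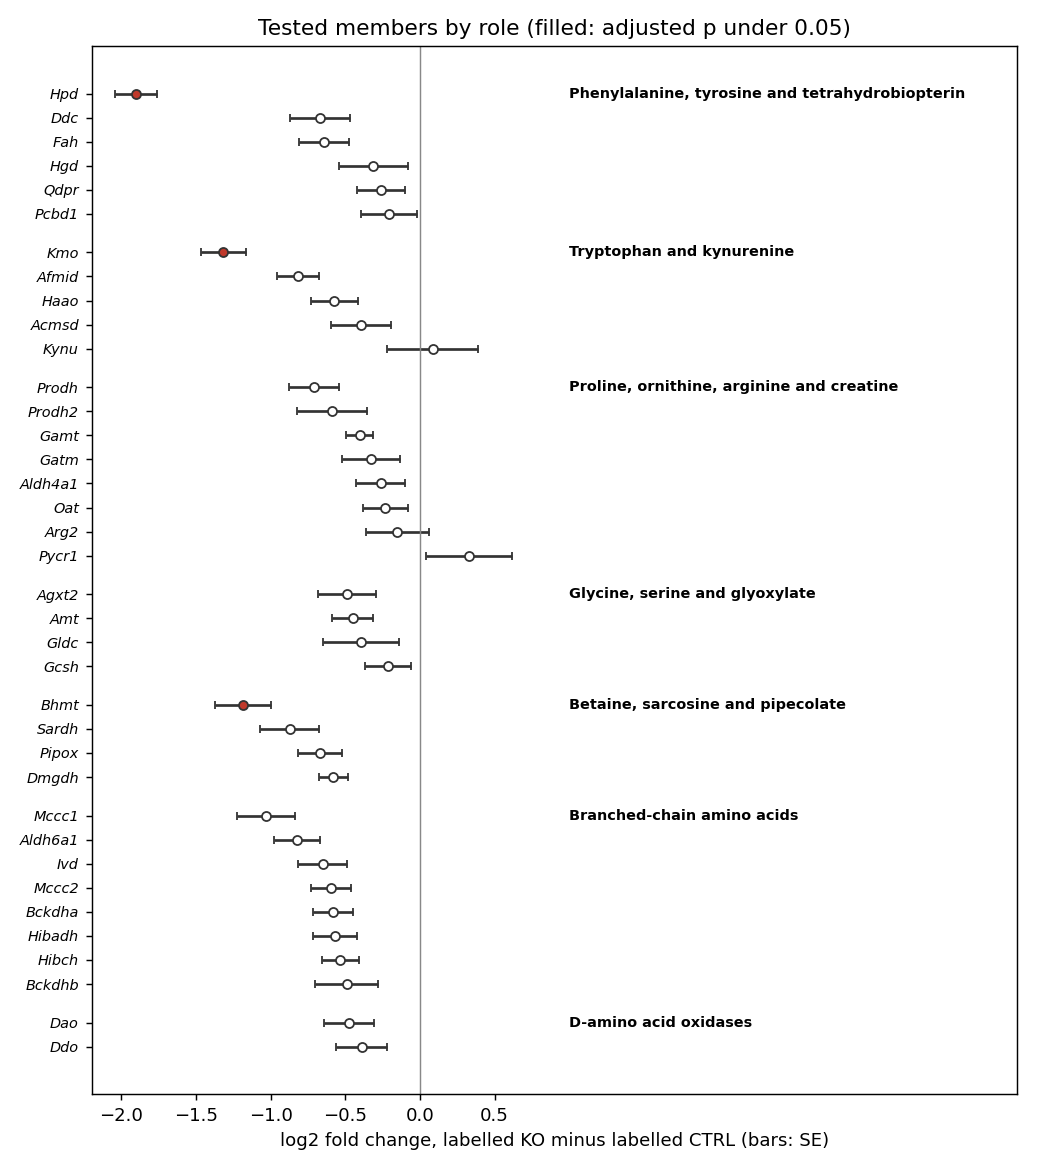
Log2 fold change (labelled KO over labelled CTRL) of the 37 tested genes by role, with bars for the standard error. Filled points mark an adjusted p under 0.05 and are Hpd, Kmo and Bhmt, and only Kynu and Pycr1 lie to the right of 0.

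The windows that RefSeq places around the starts of the called genes (250 bases before to 50 after, build GRCm38.p6) are shown together with those of Agxt2 and Pipox, because Agxt2, Pipox and Bhmt carry a nuclear receptor element. Agxt2 and Pipox were picked after their sequences had been seen. Capitals mark every match, on either strand, to the TATA box TATAAA, the CCAAT box CCAAT, the HNF1 half-site GTTAAT, the HNF4 element CAAAGTCCA or the DR1 element CAAAGGTCA. A motif that lies on the other strand appears as its reverse complement.
Hpd (chr5:123182674-123182973, minus strand): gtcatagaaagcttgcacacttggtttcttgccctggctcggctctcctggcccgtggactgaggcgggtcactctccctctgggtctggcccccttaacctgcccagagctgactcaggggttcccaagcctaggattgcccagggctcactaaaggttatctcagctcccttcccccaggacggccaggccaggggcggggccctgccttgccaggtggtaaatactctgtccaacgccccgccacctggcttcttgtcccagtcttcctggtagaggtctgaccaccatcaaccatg
Kmo (chr1:175631943-175632242, plus strand): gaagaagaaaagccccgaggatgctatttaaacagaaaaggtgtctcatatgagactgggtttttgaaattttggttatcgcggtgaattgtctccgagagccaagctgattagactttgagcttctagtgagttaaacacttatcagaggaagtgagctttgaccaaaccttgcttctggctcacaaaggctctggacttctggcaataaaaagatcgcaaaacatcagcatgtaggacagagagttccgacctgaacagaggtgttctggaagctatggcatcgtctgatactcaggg
Bhmt (chr13:93637709-93638008, minus strand): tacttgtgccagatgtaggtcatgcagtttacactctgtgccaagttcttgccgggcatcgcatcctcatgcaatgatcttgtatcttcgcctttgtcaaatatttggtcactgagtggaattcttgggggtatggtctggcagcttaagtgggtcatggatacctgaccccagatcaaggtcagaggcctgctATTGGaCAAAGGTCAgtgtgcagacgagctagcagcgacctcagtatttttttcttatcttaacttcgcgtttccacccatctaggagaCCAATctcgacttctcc
Agxt2 (chr15:10358283-10358582, plus strand): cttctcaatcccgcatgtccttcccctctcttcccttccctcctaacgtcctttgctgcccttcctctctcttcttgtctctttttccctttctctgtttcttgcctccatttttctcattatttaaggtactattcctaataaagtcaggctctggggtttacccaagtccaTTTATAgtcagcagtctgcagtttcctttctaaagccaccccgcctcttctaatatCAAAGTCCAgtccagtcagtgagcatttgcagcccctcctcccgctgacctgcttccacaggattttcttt
Pipox (chr11:77893823-77894122, minus strand): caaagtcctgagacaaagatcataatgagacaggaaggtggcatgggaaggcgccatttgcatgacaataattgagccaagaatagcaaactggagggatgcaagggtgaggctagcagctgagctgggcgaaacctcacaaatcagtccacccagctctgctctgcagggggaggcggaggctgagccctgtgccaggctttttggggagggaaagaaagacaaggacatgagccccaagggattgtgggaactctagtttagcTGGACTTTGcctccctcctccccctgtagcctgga
The Hpd and Kmo windows hold none of the 5 motifs. In Bhmt a CCAAT box on the other strand begins 56 bases before the gene start, a DR1 element 50 bases before it and a further CCAAT box 33 bases after it. The HNF4 element begins 21 bases before the start in Agxt2, and in Pipox it lies on the other strand, 15 bases after the start. Windows were found for 37 of the 40 genes, 43 in all since some genes have several starts. The HNF4 element was in 3 of the 43 (6.98%), of which both Agxt2 windows overlap each other, against 0.475% of all 32851 promoter windows. The DR1 element was in 1 (2.33%), against 0.478%, the HNF1 half-site in 4 (9.3%), against 7.1%, the TATA box in 5 (11.6%), against 13.6%, and the CCAAT box in 23 (53.5%), against 37.4%. The median GC content of the members' windows was 55.3%, against 52.7% for all windows. Kmo's window starts at a site inside the gene as GENCODE draws it. The motifs were chosen after sequences and values had been seen.

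In tyrosine breakdown, Hpd was the step that fell, and the steps after it had smaller differences. Hpd, the dioxygenase that turns 4-hydroxyphenylpyruvate into homogentisate (ENSMUSG00000029445, chromosome 5, 123171807 to 123182727, minus strand, GRCm38), stood at 10.01, 8.45 and 8.43 CPM in KO 146, 147 and 148, against 34.7, 37.9 and 28.1 CPM in CTRL 157, 162 and 163. The groups were well apart and the 3 libraries labelled KO were close to each other. The fall was 3.74-fold (log2 fold change -1.90, SE 0.14, edgeR Benjamini-Hochberg adjusted p = 0.00891). The call was lost without KO 147, CTRL 157 or CTRL 162, with edgeR adjusted p values of 0.113, 0.0927 and 0.0611 and log2 fold changes of -1.86, -1.88 and -1.81. Over all alternatives the adjusted p of Hpd ran between 4.4e-24 and 0.113. Hgd, the homogentisate dioxygenase that acts next, had 146, 244 and 265 CPM in the libraries labelled KO and 299, 239.5 and 274 CPM in those labelled CTRL, and the groups overlapped. Per kilobase, the ratio of Hpd to Hgd was 0.0845, 0.0425 and 0.0391 in KO 146, 147 and 148, against 0.143, 0.194 and 0.126 in CTRL 157, 162 and 163. Fah had 155, 216 and 236 CPM in the libraries labelled KO and 336, 309 and 303 CPM in those labelled CTRL, with no overlap (log2 fold change -0.64, SE 0.17, edgeR adjusted p = 0.0787).

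The cofactor genes differed less. Pcbd1 had 189, 281 and 314 CPM in the libraries labelled KO and 313, 295 and 299 CPM in those labelled CTRL, with KO 148 above all libraries labelled CTRL. Qdpr had 309.9, 432 and 462 CPM in the libraries labelled KO and 496, 467 and 477 CPM in those labelled CTRL, where KO 148 was just under the lowest CTRL value. Their log2 fold changes were -0.21 (SE 0.19) and -0.26 (SE 0.16). Ddc, the decarboxylase that makes dopamine in tubules, had 29.4, 35.1 and 49.4 CPM in the libraries labelled KO and 68.5, 59.3 and 53.5 CPM in those labelled CTRL. Its log2 fold change was -0.67 (SE 0.20, edgeR adjusted p = 0.0923).

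On the kynurenine route of tryptophan, Kmo fell. Kmo, the mitochondrial monooxygenase that hydroxylates kynurenine (ENSMUSG00000039783, chromosome 1, 175620381 to 175662116, plus strand), had 40.3, 41.1 and 57.2 CPM in KO 146, 147 and 148, against 122, 115 and 108 CPM in CTRL 157, 162 and 163. The groups were far apart, and KO 148 was the nearest to the libraries labelled CTRL. The fall was 2.49-fold (log2 fold change -1.32, SE 0.15, edgeR adjusted p = 0.0311). The call was lost without KO 147 or any 1 library labelled CTRL (edgeR adjusted p 0.139 to 0.178, log2 fold change -1.37 to -1.24), and over all alternatives the adjusted p ran between 9.45e-11 and 0.178. Afmid, the formamidase one step earlier, had 18.3, 23.7 and 22.8 CPM in the libraries labelled KO and 42.3, 38.9 and 32.9 CPM in those labelled CTRL (log2 fold change -0.82, SE 0.14, edgeR adjusted p = 0.0585). Of its exonic bases 46.6% overlap other genes, among them Tk1 on the opposite strand (15.0 to 20.3 CPM in the libraries labelled KO and 11.8 to 13.8 CPM in those labelled CTRL), and without a stated strand setting their reads cannot be told apart. Haao and Acmsd, which act after Kmo, had log2 fold changes of -0.57 (SE 0.16) and -0.40 (SE 0.20). The ratio of Kmo to Haao per kilobase was 0.434, 0.309 and 0.417 in the libraries labelled KO, against 0.647, 0.643 and 0.627 in those labelled CTRL. Kynu, the kynureninase, was low and overlapped between the groups, at 4.98, 9.58 and 11.8 CPM in KO 146, 147 and 148 and 7.62, 7.88 and 9.35 CPM in CTRL 157, 162 and 163.

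Around betaine and sarcosine, Bhmt fell and its 3 partners had lower values without a call. Bhmt (ENSMUSG00000074768, chromosome 13, 93616675 to 93637961, minus strand) rested on few reads, at 0.661, 0.652 and 0.770 CPM in KO 146, 147 and 148, against 1.70, 1.44 and 1.60 CPM in CTRL 157, 162 and 163. Each library labelled KO was below each labelled CTRL, a 2.28-fold fall (log2 fold change -1.19, SE 0.19, edgeR adjusted p = 0.0492). The call was lost when library totals set the scale (edgeR adjusted p = 0.0607), in limma-voom (0.0531), and without KO 147 or any 1 library labelled CTRL (edgeR 0.139 to 0.239). Its lowest adjusted p over the alternatives was 6.2e-04, by DESeq2. Its paralog Bhmt2 lies 17758 bases away and Dmgdh, the dimethylglycine dehydrogenase that takes the product of the reaction, lies 130 bases beyond Bhmt2 on the same chromosome. Dmgdh had 49.5, 55.1 and 60.5 CPM in the libraries labelled KO and 86.2, 83.6 and 77.3 CPM in those labelled CTRL (log2 fold change -0.58, SE 0.10, edgeR adjusted p = 0.0582). Bhmt2 had a log2 fold change of -0.59 (SE 0.14). Sardh, the sarcosine dehydrogenase, had 112, 131 and 150 CPM in the libraries labelled KO and 207, 308 and 202 CPM in those labelled CTRL, with CTRL 162 far above the other two. Pipox, the peroxisomal pipecolate and sarcosine oxidase, had 151, 198 and 213 CPM in the libraries labelled KO and 324, 288 and 281 CPM in those labelled CTRL. Sardh and Pipox had log2 fold changes of -0.87 (SE 0.20) and -0.67 (SE 0.15), each with an edgeR adjusted p near the threshold and above it (0.0755 and 0.0753).

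**Figure D3:**
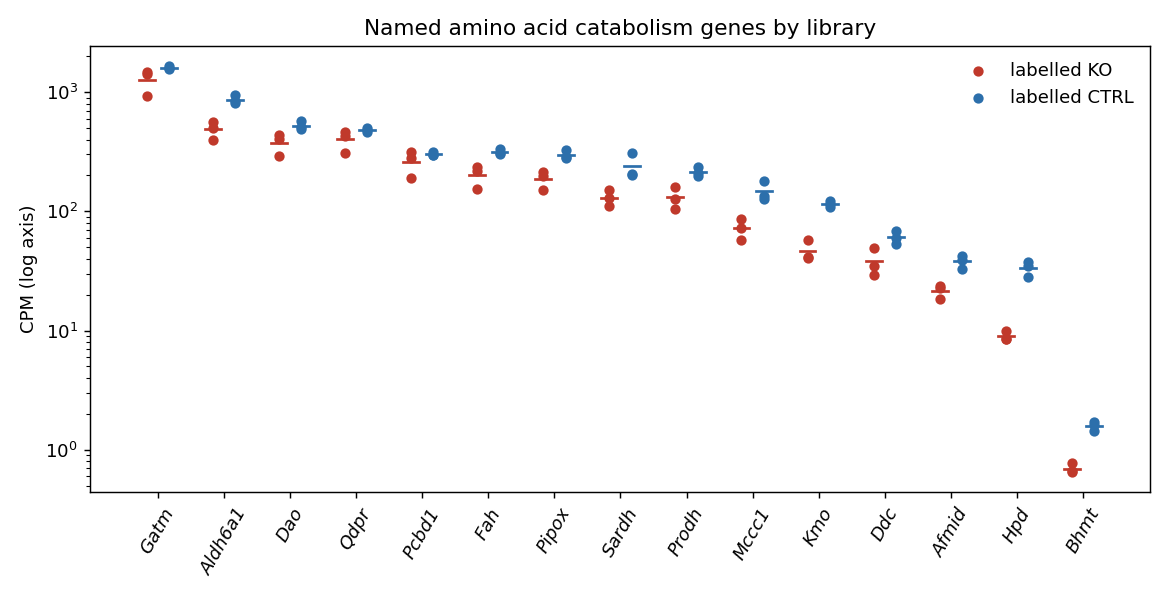
CPM on a log axis in each library (points) with the group mean (bars) for the called genes, the 10 largest changes and the 5 highest levels per kilobase, with libraries labelled KO left of those labelled CTRL. Hpd, Kmo and Bhmt show the widest gaps, and only Pcbd1 overlaps between the groups.

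All 8 enzymes of branched-chain amino acid breakdown had lower values in every library labelled KO than in any labelled CTRL, as did 19.6% of all genes tested. edgeR called 0 of them, with 7 lower at an unadjusted p below 0.05 (11.8% of all genes). Without KO 146 edgeR called 7 of the 8 lower (6.62% of all genes), Bckdhb being the exception, and DESeq2 called the same 7 (5.89%). Without KO 148 edgeR called all 8 (5.4%), and without KO 147, CTRL 157, CTRL 162 or CTRL 163 it called 0. Mccc1, the biotin-carrying subunit of methylcrotonyl-CoA carboxylase in leucine breakdown, had 57.3, 72.6 and 86.0 CPM in KO 146, 147 and 148 and 181, 128 and 133 CPM in CTRL 157, 162 and 163. Its log2 fold change was -1.03 (SE 0.19, edgeR adjusted p = 0.0666), while that of its partner subunit gene Mccc2 was -0.60 (SE 0.14). Aldh6a1, the methylmalonate semialdehyde dehydrogenase of valine breakdown, had 398, 505 and 559 CPM in the libraries labelled KO and 937, 844 and 806 CPM in those labelled CTRL (log2 fold change -0.82, SE 0.15, edgeR adjusted p = 0.0671). When library totals set the scale, Aldh6a1 was called along with Hpd and Kmo (0.293% of all genes lower), and Bhmt was not. The branched-chain ketoacid dehydrogenase subunits Bckdha and Bckdhb, Ivd of leucine breakdown, and Hibch and Hibadh of valine breakdown lay between -0.65 (Ivd) and -0.49 (Bckdhb). Of the exonic bases of Bckdha 61.7% overlap B3gnt8 on the opposite strand, and of those of Aldh6a1 18.6% overlap Bbof1, also on the opposite strand. Outside the branched-chain genes and Afmid, other genes overlap 32.5% of the exonic bases of Aldh4a1, 29.6% of Sds, 28.1% of Arg2 and 18.6% of Qdpr.

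In proline, ornithine, arginine and creatine metabolism edgeR called 0 of 8 genes, where 0.421% of all genes were called lower and 0.591% higher. At an unadjusted p below 0.05, 3 of the 8 were lower, against 11.8% of all genes. Prodh, the first enzyme of proline oxidation, had 105, 128 and 161 CPM in the libraries labelled KO and 236, 209 and 198 CPM in those labelled CTRL (log2 fold change -0.71, SE 0.17, edgeR adjusted p = 0.0755). Prodh2, which oxidises hydroxyproline, and Aldh4a1, which serves both routes, had log2 fold changes of -0.59 (SE 0.23) and -0.26 (SE 0.16). Gatm had 932, 1408 and 1481 CPM in KO 146, 147 and 148 and 1649, 1594 and 1549 CPM in CTRL 157, 162 and 163, so that most of its spread was between KO 146 and the others (log2 fold change -0.33, SE 0.19). Gamt, which methylates the product of Gatm, was even within each group, at 17.4, 16.4 and 17.4 CPM in the libraries labelled KO and 23.9, 20.95 and 23.0 CPM in those labelled CTRL (-0.40, SE 0.09, edgeR adjusted p = 0.0753). Oat, the ornithine aminotransferase, stood at -0.23 (SE 0.15) and the mitochondrial arginase Arg2 at -0.15 (SE 0.21), and both overlapped. Pycr1 had the highest log2 fold change of the list, 0.33 (SE 0.29), with overlapping groups and at most 0.652 CPM in any library.

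The glycine cleavage genes and the D-amino acid oxidases also had lower values, and edgeR called 0 of them. Of all genes 0.421% were called lower, so 0 calls in so few genes do not set them apart. Gldc, the decarboxylase of the glycine cleavage system, had 42.4, 83.6 and 83.7 CPM in KO 146, 147 and 148 and 93.7, 86.5 and 95.2 CPM in CTRL 157, 162 and 163. KO 146 was far below the rest, which lay near each other. Its partners Amt, the aminomethyltransferase, and Gcsh, the lipoyl carrier, had log2 fold changes of -0.45 (SE 0.14) and -0.21 (SE 0.15). Agxt2, the mitochondrial aminotransferase that also clears dimethylarginines, had 77.6, 119 and 129 CPM in the libraries labelled KO and 167, 143 and 148 CPM in those labelled CTRL (-0.49, SE 0.19). Dao had 293, 402 and 435 CPM in the libraries labelled KO and 569, 489.5 and 512 CPM in those labelled CTRL (-0.48, SE 0.17, edgeR adjusted p = 0.122), and Ddo, which oxidises D-aspartate, had a log2 fold change of -0.39 (SE 0.17). By place in the cell, the median log2 fold change was -0.55 over 22 mitochondrial, -0.49 over 12 cytosolic and -0.48 over 3 peroxisomal genes tested.

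Proximal tubule markers moved in the same libraries as these genes. Relative to the CTRL mean, the median marker was at -0.99, -0.41 and -0.25 on the log2 scale in KO 146, 147 and 148, and the median tested gene of the list at -0.88, -0.51 and -0.28. Among the libraries labelled KO, 34 of the 37 genes and all 27 markers were higher in KO 148 than in KO 146, by a median of 0.56 and 0.74 log2 units. The exceptions were Hpd (-0.25), Pycr1 (-0.50) and Gamt, whose values were nearly equal. All 27 markers had a log2 fold change below 0 (median -0.52), against 50.7% of all genes, and 2 were called lower, against 0.421%. The 7 markers of the early segments had a median of -0.45 and the 8 of the late segment of -0.73. The late-segment markers summed to 1782 to 2504 CPM in the libraries labelled KO and 3490 to 3664 CPM in those labelled CTRL. Most of that sum came from Acy3 and Atp11a, and Acy3 is itself an enzyme of the second gene list described below. Single late-segment markers ran from -1.76 (Cyp7b1) to -0.076 (Slc5a1). Later nephron segments, down to the collecting duct, had markers below 0 in 19 of 19 tested genes (median -0.44). Markers of the glomerulus lay the other way, above 0 in 20 of 20 podocyte, 15 of 15 endothelial and 15 of 15 mesangial genes. Their medians were 2.03, 1.74 and 1.62, and 0 were called, where 0.591% of all genes were called higher. The part of tubule and glomerular content in the differences of the enzymes was not tested beyond the values that follow.

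**Figure D4:**
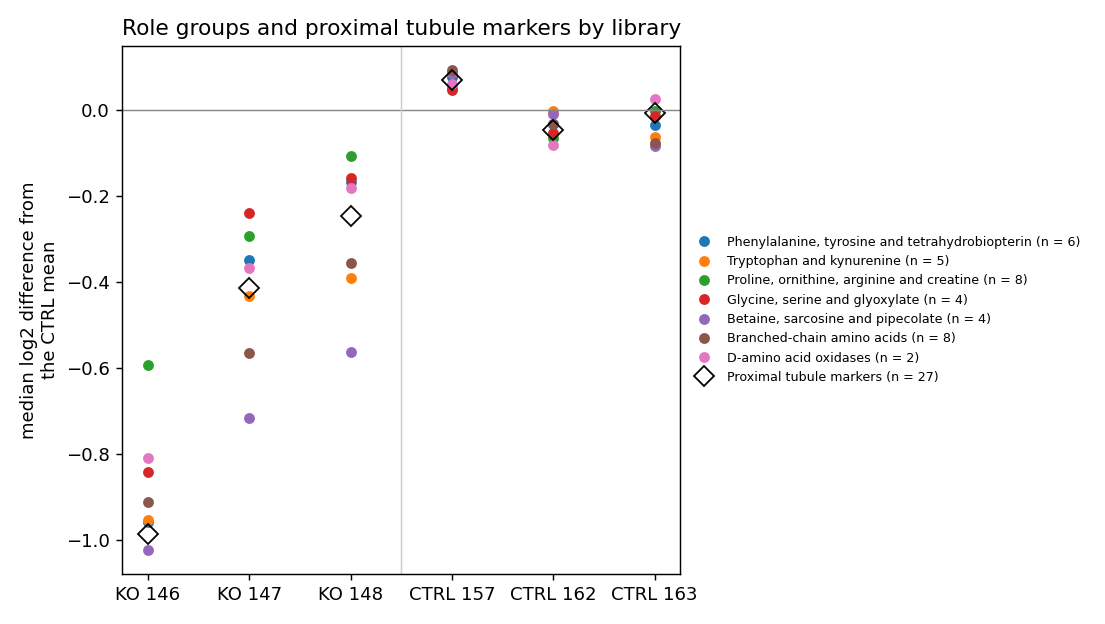
Median log2 difference from the CTRL mean in each library for the 7 role groups (coloured points) and for 27 proximal tubule markers (open diamonds), with libraries labelled KO on the left. In KO 146, 147 and 148 the role groups lie on both sides of the marker median of -0.99, -0.41 and -0.25.

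With the mean of the proximal tubule markers as a covariate, edgeR called Hpd and Kmo lower and Kynu higher, where 0.351% of all genes were called lower and 1.25% higher. The log2 fold change of Hpd was then -2.12 (SE 0.20, edgeR adjusted p = 0.00121), that of Kmo -0.98 (SE 0.16, adjusted p = 0.0319) and that of Kynu 0.99 (SE 0.19, adjusted p = 0.028, 0.984 at most over the alternatives). Bhmt was at -1.02 (SE 0.36) and was not called (edgeR adjusted p = 0.213). The median over the 37 genes was -0.10, with 23 negative and 14 positive. The covariate did not overlap between the groups, so tubule content and genotype label cannot be told apart in this fit beyond the spread inside each group. As a plain difference from the marker mean, Hpd was at -4.88, -5.64 and -5.82 log2 units in KO 146, 147 and 148, against -4.12, -3.90 and -4.35 in CTRL 157, 162 and 163. On that scale 6 genes (Hpd, Fah, Kmo, Bhmt, Mccc1 and Aldh6a1) were lower in every library labelled KO than in any labelled CTRL, and 8 (Pcbd1, Qdpr, Kynu, Aldh4a1, Oat, Gatm, Gcsh and Ddo) were higher. Of all genes tested, 0.96% were lower and 71.5% higher in that sense.

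**Figure D5:**
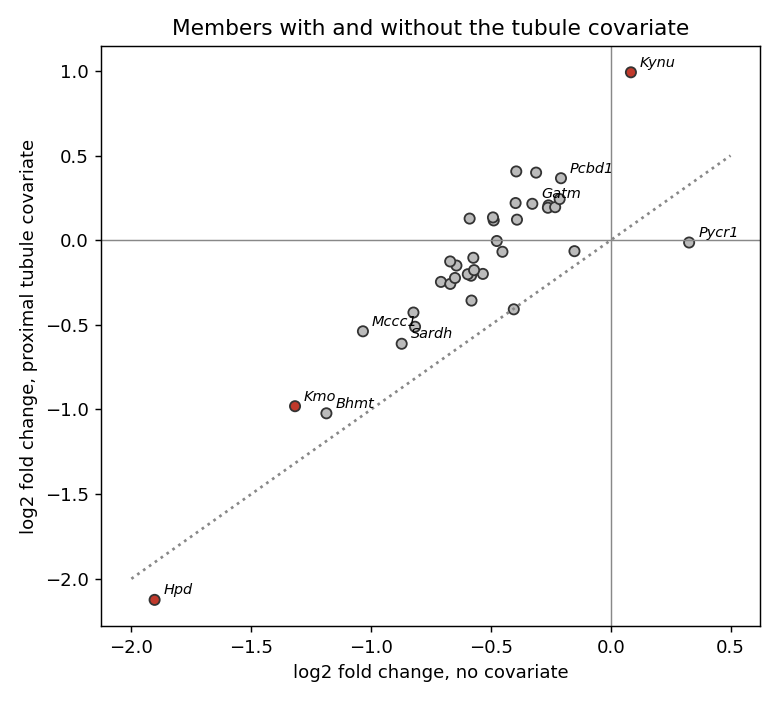
Log2 fold change (labelled KO over labelled CTRL) of the 37 genes without a covariate (horizontal) and with the proximal tubule marker mean as a covariate (vertical), where the dotted line marks equal values. Filled red points have an adjusted p under 0.05 with the covariate, namely Hpd at -2.12, Kmo at -0.98 and Kynu at 0.99.

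Since liver holds many of these enzymes, hepatocyte markers were read as well. The 10 markers summed to 382 to 698 CPM in the libraries labelled KO and 794 to 958 CPM in those labelled CTRL, nearly all of it from Cyp2e1 and Ttr. The defining marker Alb was at 0.729 to 1.01 CPM in the libraries labelled KO and 1.47 to 1.53 CPM in those labelled CTRL, and Ahsg was at or below 0.0263 CPM in every library.

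The rest of amino acid catabolism was read from a second list of 87 genes, of which 80 were tested. The log2 fold change was below 0 in 73 of the 80 (50.7% of all genes), with a median of -0.40, and edgeR called 6 lower (0.421% of all genes) and 0 higher (0.591%). Of these, 3 belong to lysine breakdown. Aass, the bifunctional enzyme that opens the pathway, had 153, 189.9 and 229 CPM in KO 146, 147 and 148, against 406, 373 and 367 CPM in CTRL 157, 162 and 163 (log2 fold change -1.002, SE 0.16, edgeR adjusted p = 0.0487). Aadat, the aminoadipate and kynurenine aminotransferase, fell to 55.3, 48.7 and 60.1 CPM in the libraries labelled KO, against 96.2, 100.3 and 109 CPM in those labelled CTRL (-0.90, SE 0.10, edgeR adjusted p = 0.0311). Dhtkd1, a subunit of the oxoadipate dehydrogenase, fell to 21.9, 27.8 and 28.1 CPM, against 53.5, 50.9 and 47.1 CPM (-0.96, SE 0.12, edgeR adjusted p = 0.0332).

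The other 3 were Gnmt, the glycine methyltransferase, Cbs, which joins homocysteine and serine, and Acy1, which frees amino acids from their acetylated forms. Gnmt averaged 6.499 ± 1.07 CPM in the libraries labelled KO and 13.7 ± 0.61 CPM in those labelled CTRL, Cbs 71.2 ± 8.63 and 130.5 ± 11.4 CPM, and Acy1 105 ± 8.16 and 161 ± 6.53 CPM (SD, n = 3 each). Their edgeR adjusted p values were 0.0357, 0.0365 and 0.0417. With the tubule covariate edgeR called Aass, Aadat, Dhtkd1, Gnmt and Cbs lower (adjusted p 0.0163 to 0.0437), as it did 0.351% of all genes. Acy1 then had an edgeR adjusted p of 0.0523 (1.13e-06 to 0.21 over the alternatives). Because the covariate did not overlap between the groups, these calls do not part tubule content from genotype label. None of the 6 was called without KO 147, CTRL 157, CTRL 162 or CTRL 163, where edgeR called 0 of the 80 lower (0.00569% to 0.0284% of all genes). Ftcd, an enzyme of histidine breakdown, had the largest uncalled change among genes averaging 5 CPM or more in whichever group was higher, at 4.64, 2.08 and 3.92 CPM in the libraries labelled KO and 13.8, 15.1 and 10.4 CPM in those labelled CTRL (-1.88, SE 0.31, edgeR adjusted p = 0.053). Hao2, a peroxisomal hydroxyacid oxidase, came next above that level at -1.09 (SE 0.26, edgeR adjusted p = 0.0756). Of the genes whose enzymes open the kynurenine route, named here after their values were seen, Tdo2 and Ido1 stayed at or below 0.576 CPM in every library. On few reads, Tdo2 was higher in every library labelled KO than in any labelled CTRL (log2 fold change 0.83, SE 0.30, edgeR adjusted p = 0.129). Ido1 overlapped and was not tested. Ido2 had 5.66, 5.24 and 3.92 CPM in KO 146, 147 and 148 and 9.36, 8.74 and 8.54 CPM in CTRL 157, 162 and 163 (-0.85, SE 0.17, edgeR adjusted p = 0.0707).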

How the data were processed

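Total RNA of isolated glomeruli from 6 mice was sequenced, 1 library per mouse. The submitters' processing notes name, without roles, HTSeq 0.11.1, STAR 2.6.0, fastp 0.19.5 and DESeq2. The notes list GRCh37, a human build, while the deposited identifiers are mouse Ensembl genes, so the build is uncertain. Annotation release and strand setting: not given in the sources used here. Whole-number counts of reads for each gene were deposited, and 28.55% to 35.14% of records named no gene, 22.51% to 29.63% because they aligned to several places. These were left out, so genes with close copies are undercounted. Replicates of a group differed far beyond sampling noise (chi-square per degree of freedom 16.7 or more).

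Names, positions and exon lengths came from GENCODE M21 (GRCm38), which named 54809 of 54838 identifiers. edgeR 4.0.16 in R 4.3.3 tested labelled KO against labelled CTRL (TMM scaling, filterByExpr with a minimum count of 10, robust quasi-likelihood fit, no covariate), with Benjamini-Hochberg adjustment over all genes and calls below 0.05. The standard error is the absolute log2 fold change over the square root of F. CPM uses library sizes scaled by TMM, and log values a prior count of 2. CPM per kilobase divides by the union of exons. Alternatives used DESeq2 1.42.0, limma-voom (limma 3.58.1), other scalings, no filter, a tubule covariate and the omission of each library. The fit was tested on simulated data.

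The members and all gene lists were chosen with earlier results of these data known. Full values are given for members that were called, had the 10 largest changes or the 5 highest levels per kilobase, and, outside the list, for called genes and the 5 largest changes at a mean of at least 5 CPM. Promoter windows are RefSeq's. P-values measure the spread between 3 mice per group, and counting limits cover counting error only.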

Additional observations from a re-analysis of the deposited data

How the results depend on the processing

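No paired analysis was possible because the groups share no replicate numbers. Over all genes, edgeR called 173, against 2959 by DESeq2, 960 without a low-count filter, 273 with the tubule covariate, and 2 to 3211 with 1 library left out. Members called lower numbered 3 (0.421% of all genes), against 21 by DESeq2 (5.89%) and 17 without the filter (1.31%). With 1 library left out, 0 to 23 members were called lower (0.00569% to 6.62% of all genes). The number called higher was 0 (0.591% of all genes), and 1 with the covariate (1.25%). Their median log2 fold change of -0.53 was -0.10 with the covariate and lay between -0.66 and -0.42 with 1 library left out. Of the other pathway genes, 6 were called lower (0.421% of all genes), against 35 by DESeq2 (5.89%) and 26 without the filter (1.31%). With 1 library left out, 0 to 40 of these genes were called lower (0.00569% to 6.62% of all genes). Those called higher numbered 0 (0.591% of all genes), against 1 by DESeq2 (12.1%), 1 with the covariate (1.25%) and 0 to 1 with 1 library left out. The median log2 fold change of these genes, -0.40, was -0.022 with the covariate. Scaling by library totals moved the median of all genes from -0.0062 to 0.13 and that of the members to -0.40.

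With the covariate the sign turned for Gldc (0.41), Hgd (0.40), Pcbd1 (0.37), Gcsh (0.24), Acmsd (0.22), Gatm (0.22), Qdpr (0.21), Oat (0.20), Aldh4a1 (0.19), Bckdhb (0.13), Prodh2 (0.13), Ddo (0.12), Agxt2 (0.12), Pycr1 (-0.014) and Arhgef7 (-0.39), none with an edgeR adjusted p below 0.05. Kynu was at -0.047 in limma-voom, -0.20 without KO 148 and up to 0.36 without another library, and Arhgef7 at -0.068 without KO 146 and up to 0.28 without another library. The causes were not tested. With 3 libraries per group and KO 146 far from the others, the calls rest on few degrees of freedom.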
